A study of Mus musculus with 4 samples.

Results

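The 32 genes described here cover glycolysis, the transport of glucose and lactate, and the HIF1 pathway that controls much of glycolysis. They were chosen by symbol from the count matrix, which held 24421 gene symbols, and 32 of 32 were found. Expression was measured in B16F10 cells, a C57BL/6 mouse melanoma line, by bulk MARS-seq, which tags RNA molecules at the poly(A) end and counts reads from the 3′ end of transcripts. Of the 4 libraries, 2 came from cells stably carrying a control vector (shControl 1 and 2), which the labels describe as Control shRNA and the study's methods as an empty pLKO.5 vector. The other 2 (shLmna 1 and 2) came from cells stably carrying 1 short hairpin RNA that targets Lmna, which encodes the A-type lamins lining the inside of the nuclear envelope. All cells were transduced with lentivirus and selected with puromycin, and any effect of carrying a hairpin cannot be told apart from that of the Lmna knockdown. The labels name no change of oxygen. No source used here says that replicates were separate cultures, so the p-values measure only the spread between libraries, which may be technical.

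Library totals ranged from 2494880 to 3808843 counts. Levels are given in CPM, a gene's count scaled to a common library size with the TMM factors of edgeR. Lmna stood at 875.3 and 718.6 CPM in shControl and at 130.9 and 130.8 CPM in shLmna, which is a difference of -2.61 on the log2 scale with an SE of 0.14 (edgeR adjusted p = 7.93e-06). The 9 melanocyte and melanoma markers were all detected, with a summed level of 20842 to 21716 CPM in shControl and 22017 to 25579 CPM in shLmna. The 15 markers of fibroblasts, leukocytes, endothelial cells and keratinocytes summed to at most 7.23 CPM per cell type in any library. In bulk RNA, fewer cells that express a gene and less of its RNA per cell cannot be told apart.

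Glycolysis splits glucose into pyruvate, and lactate dehydrogenase turns the pyruvate into lactate, which is exported with a proton. Tumour cells, melanoma cells among them, often run this route even where oxygen is present. HIF1 is a transcription factor made of the oxygen-labile subunit HIF1A and the stable partner ARNT. In oxygen, prolyl hydroxylases (the Egln genes) mark HIF1A for VHL, which directs its destruction, so the factor is set largely at the level of the protein. When HIF1A escapes this, HIF1 binds a short motif near its targets, which include glucose transporters, most glycolytic enzymes and the mitophagy gene Bnip3.

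The group did not move as a block in shLmna cells. Of the 32 genes, 25 had enough counts to be tested, 6 of these were lower in shLmna at an adjusted p under 0.05, and 1 was higher. The 6 lower genes were Hif1a itself, Bnip3, the phosphofructokinase Pfkl, the lactate exporter Slc16a3, the enolase Eno2 and the lactate dehydrogenase Ldha, and the higher gene was the other lactate dehydrogenase, Ldhb. Among all 9150 tested genes, 9.74% were lower and 5.48% were higher by this limit, against 24% and 4% of the 25. By the study's 3 limits together (adjusted p under 0.05, a log2 fold change over 1 in size, a mean normalized count over 5), Pfkl, Hif1a and Bnip3 were lower and 0 genes were higher. Those 3 limits took 5.88% of all tested genes as lower and 1.76% as higher. DESeq2 also found 3 lower and 0 higher by the 3 limits, which took 4.3% of all tested genes as lower and 0.809% as higher in that tool. By adjusted p alone DESeq2 found 6 lower and 0 higher, against 6.63% and 2.58% of all tested genes. At an unadjusted p under 0.05 edgeR gave 9 lower and 2 higher, which is 44% of the 25 together, against 30.1% of all tested genes (16.5% lower and 13.6% higher). In a fit that takes out the trend of fold change with GC content, 6 of the 25 were lower and 0 higher, with Tpi1 gained and Hif1a and Ldhb lost. In that fit 11.1% of all tested genes were lower and 6.56% higher.

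The median log2 fold change over the 25 tested genes was -0.16, with 13 below 0 and 12 above, and that over all tested genes was -0.00. The shLmna libraries did not overlap the shControl libraries for 16 of the 25, lower for 10 and higher for 6. With 2 libraries a group this was common, since 60.1% of all tested genes did not overlap. The other 7 genes were too low to test. They were Pfkp, Aldoc, Eno1, Slc16a1, Pdk1, Egln3 and P4ha1, with 0 to 11 counts in any library, and Pfkp, Eno1 and Slc16a1 had at most 3 counts in each library.

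**Figure D1:**
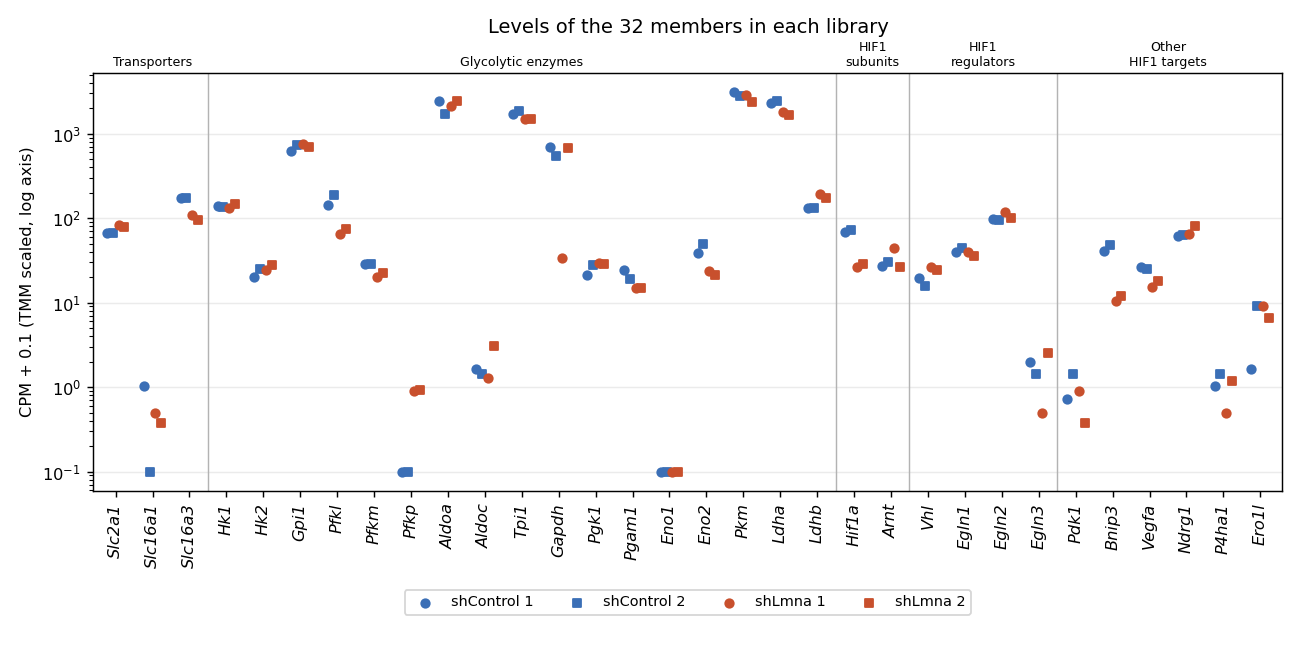
Level of each of the 32 genes in each library, in TMM-scaled CPM on a log axis after adding 0.1, ordered by role from transport through the glycolytic steps to HIF1, its regulators and its other targets. Each point is 1 library (shControl 1 and 2 in blue, shLmna 1 and 2 in red). The shLmna points sit below the shControl points for Hif1a, Bnip3 and Pfkl, and Gapdh has a single point, shLmna 1, far below the rest at 34.01 CPM.

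Hif1a, the oxygen-regulated subunit, was lower in shLmna. It stood at 67.8 and 73.1 CPM in shControl and at 26.1 and 28.9 CPM in shLmna, so the groups did not overlap. The log2 fold change was -1.35 (SE 0.16, edgeR adjusted p = 0.000514), a level 60.8% lower. Leaving out each library in turn gave -1.42 to -1.28. The value stands beside a trend with base composition. The counted 3′ end of Hif1a is 32.1% G and C, the lowest of the 25 tested genes, whose median is 48.2% against 46.9% over all tested genes. Among the 333 tested genes with a 3′ end of at most 34% GC, the median log2 fold change was -1.26 and 50.2% were lower. With a fit that takes out the trend of fold change with GC content, the value for Hif1a was -0.09 (edgeR adjusted p = 0.77). The adjusted p for Hif1a ran from 8.43e-11 to 0.807 over all alternatives tried. What lowered the AT-rich 3′ ends was not tested.

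**Figure D2:**
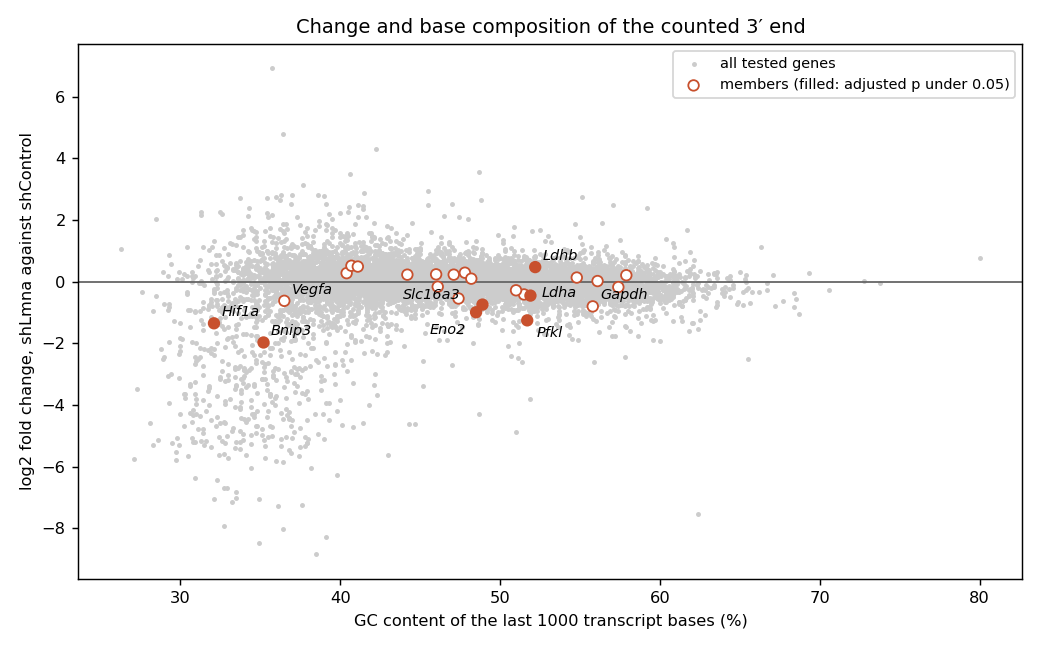
Log2 fold change of shLmna against shControl (vertical) against the GC content of the last 1000 transcript bases in percent (horizontal) for all tested genes (grey) and the 25 tested genes of the group (red, filled where the adjusted p was under 0.05). Hif1a and Bnip3, at 32.1% and 35.2% GC, lie where the grey cloud reaches far below 0, and the other 4 lower genes lie between 48.5% and 51.9% GC, in ranges where 4.26% and 5.40% of all tested genes were lower.

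The other genes around HIF1 gave a different picture. ARNT, the constant partner of HIF1A, had Arnt levels of 27.3 and 30.3 CPM in shControl and 44.3 and 26.4 CPM in shLmna. The groups overlapped, with shLmna 1 above the other libraries, and the log2 fold change was 0.27 (SE 0.25, edgeR adjusted p = 0.507). Vhl, the substrate receptor of the ligase that removes HIF1A, stood at 19.5 and 15.5 CPM in shControl and at 26.1 and 23.98 CPM in shLmna. Both shLmna libraries were above both shControl libraries, but the log2 fold change of 0.52 (SE 0.23) missed the limit at an edgeR adjusted p of 0.161.

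Of the prolyl hydroxylases, Egln1 had 39.3 and 44.7 CPM in shControl and 40.0 and 35.4 CPM in shLmna. Its log2 fold change of -0.16 had a 95% interval of -0.56 to 0.23. Egln2 had 96.3 and 94.0 CPM in shControl and 119.4 and 101.1 CPM in shLmna, with a log2 fold change of 0.21 and an interval of -0.10 to 0.51. Egln3, itself a HIF1 target, had 6 and 5 counts in the shControl libraries, 1 in shLmna 1 and 9 in shLmna 2, and could not be tested. Of the 5 tested genes among HIF1 subunits and regulators, Hif1a was thus the 1 that passed. This was 20% lower and 0% higher, against 9.74% and 5.48% of all tested genes. With the GC trend taken out, 0 of the 5 passed.

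Upstream sequence was read for the genes, since HIF1 recognises a core motif written ACGTG or GCGTG. In the 300 bases from 250 before to 50 after a RefSeq start on GRCm38.p6, on either strand, 27 of the 31 genes matched (87.1%) held the core at a start or more. Among 27025 genes in the same table, 46.7% did, and Ndrg1 was not matched. Counted by start, 35 of 45 starts of these genes held the core, against 43.8% of all starts. All genes of the table entered that share, and they were not matched to these genes for expression, number of starts or base composition of the promoter. Of the 19 matched HIF1 targets 18 held it, as did 5 of the 6 genes that were lower, Eno2 being without. A match describes letters only, and binding was not measured. The 250 bases before the start are shown for Hif1a and for the 3 HIF1 targets with the smallest edgeR p that held the core, 5′ to 3′ on the strand of the gene, with the core on either strand in capitals. The 2 cores of opposite strands overlap in CACGTG. The Hif1a window lies at chr12:73907617-73907866 (plus strand), with runs starting at -135 and -70, counted from the start. That of Bnip3 lies at chr7:138909507-138909756 (minus strand), with 4 runs, starting at -117, -108, -99 and -35. That of Pfkl lies at chr10:78009808-78010057 (minus strand), with 1 run starting at -99, and that of Slc16a3 at chr11:120948817-120949066 (plus strand), with runs starting at -27 and -14.
Hif1a: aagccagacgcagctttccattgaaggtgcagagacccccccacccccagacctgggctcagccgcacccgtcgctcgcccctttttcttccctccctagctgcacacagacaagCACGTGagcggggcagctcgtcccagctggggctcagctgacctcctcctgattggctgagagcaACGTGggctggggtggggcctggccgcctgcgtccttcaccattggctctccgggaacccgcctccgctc
Bnip3: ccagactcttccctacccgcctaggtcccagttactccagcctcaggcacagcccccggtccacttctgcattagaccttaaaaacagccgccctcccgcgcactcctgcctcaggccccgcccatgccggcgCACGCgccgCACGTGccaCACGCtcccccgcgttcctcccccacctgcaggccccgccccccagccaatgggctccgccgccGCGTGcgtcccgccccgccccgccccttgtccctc
Pfkl: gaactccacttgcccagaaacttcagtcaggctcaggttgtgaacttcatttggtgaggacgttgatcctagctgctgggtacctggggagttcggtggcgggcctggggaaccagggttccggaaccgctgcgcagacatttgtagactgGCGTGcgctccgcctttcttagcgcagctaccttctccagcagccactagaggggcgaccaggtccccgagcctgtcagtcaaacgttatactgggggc
Slc16a3: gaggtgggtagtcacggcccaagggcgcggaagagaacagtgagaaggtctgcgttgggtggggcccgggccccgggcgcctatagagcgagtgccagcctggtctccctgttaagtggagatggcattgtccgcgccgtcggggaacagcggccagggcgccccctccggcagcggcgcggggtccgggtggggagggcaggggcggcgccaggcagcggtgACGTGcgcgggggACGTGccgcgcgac

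Among HIF1 targets outside glycolysis, Bnip3 had the largest change of the 25 tested genes. BNIP3 sits in the outer mitochondrial membrane and marks mitochondria for removal in hypoxia. It stood at 40.6 and 47.7 CPM in shControl and at 10.3 and 12.0 CPM in shLmna, with no overlap. The log2 fold change was -1.97 (SE 0.22, edgeR adjusted p = 0.000356), a 3.93-fold lower level. Among tested genes with a 3′ end of 34% to 38% GC, 24.9% were lower. Their median log2 fold change was -0.12, and 0.28 after the GC correction, so the corrected values of that range lie above 0 as a set. The 3′ end of Bnip3, at 35.2% GC, falls in this range. With the GC trend taken out its value was -1.35 (edgeR adjusted p = 0.00209), and its adjusted p ran up to 0.00961 over all alternatives, so the call held in each of them.

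Vegfa, the angiogenic growth factor, stood at 26.6 and 24.6 CPM in shControl and at 15.0 and 18.0 CPM in shLmna. The groups did not overlap, but its log2 fold change of -0.62 (SE 0.22) had an edgeR adjusted p of 0.0925, and with the GC trend taken out it was -0.27. Ndrg1, a stress-responsive gene induced by hypoxia, stood at 61.6 and 63.5 CPM in shControl and at 65.3 and 80.4 CPM in shLmna, with a log2 fold change of 0.23 (95% interval -0.12 to 0.57). Ero1l, the oxidase that forms disulfide bonds in the endoplasmic reticulum, rested on few counts, with 5 and 34 in the shControl libraries against 23 and 24. Its log2 fold change of 0.49 was -0.24 without shControl 1 and 2.28 without shControl 2, so its direction rested on 1 library. Pdk1, which restrains pyruvate entry into mitochondria, had 1 to 5 counts a library, and P4ha1, a collagen prolyl hydroxylase, had 1 to 5 counts.

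The transporters at the start and the end of the pathway gave different values. Slc2a1 encodes GLUT1, the glucose importer, and stood at 66.6 and 66.1 CPM in shControl and at 83.5 and 79.0 CPM in shLmna. The shLmna libraries were both above the shControl libraries, but the log2 fold change of 0.29 (SE 0.14) missed the limit at an edgeR adjusted p of 0.185. Slc16a3 encodes MCT4, which exports lactate. It stood at 171.0 and 171.1 CPM in shControl and at 109.2 and 95.6 CPM in shLmna, without overlap and with a log2 fold change of -0.74 (SE 0.13, with an adjusted p of 0.00412 in edgeR). With the GC trend taken out it was -0.88, and without shLmna 2 the adjusted p was 0.0911 at a log2 fold change of -0.63. Slc16a1, the related transporter MCT1, had 3 counts in shControl 1, 0 in shControl 2 and 1 in each shLmna library.

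Along the pathway itself, 3 of the 14 tested enzyme genes were lower and 1 was higher. These shares were 21.4% and 7.14%, against 9.74% and 5.48% of all tested genes, so the higher share was near that of all genes. The upper steps began with hexokinase, which traps glucose in the cell. Hk1 stood at 138.8 and 136.5 CPM in shControl and at 130.9 and 147.4 CPM in shLmna, a log2 fold change of 0.02 (95% interval -0.26 to 0.30). Hk2, the hypoxia-inducible form, stood at 19.8 and 24.6 CPM in shControl and at 24.1 and 27.8 CPM in shLmna, a log2 fold change of 0.23 (95% interval -0.27 to 0.72). Both overlapped between the groups, as did Gpi1, the isomerase of the next step, with 623.5 and 726.1 CPM in shControl and 751.1 and 692.0 CPM in shLmna.

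Phosphofructokinase, the committed and most tightly regulated step, held the largest change among the enzyme genes that passed the test. Pfkl, its liver-type form, stood at 143.1 and 189.8 CPM in shControl and at 65.3 and 73.8 CPM in shLmna. The groups were far apart, with a log2 fold change of -1.26 (SE 0.16, with an adjusted p of 0.000796 in edgeR), a 2.39-fold lower level. The 3′ end of Pfkl is 51.7% GC, and with the GC trend taken out the value was -1.35. Its adjusted p stayed at or under 0.0206 in every alternative. An exon of 1810043G02Rik on the opposite strand overlaps the counted end of Pfkl, and the strand setting of the counting is not stated. That gene had from 180 to 226 counts in each library, with no order between the groups. Exons on the opposite strand also overlap the counted ends of Bnip3, Gapdh, Tpi1, Pfkp, Egln2, Vhl and Ndrg1. An exon on the same strand overlaps that of Pkm. Pfkm, the muscle-type form, stood at 28.2 and 28.7 CPM in shControl and at 19.8 and 22.6 CPM in shLmna. It did not overlap between the groups either, but its log2 fold change of -0.42 (SE 0.21) had an edgeR adjusted p of 0.214. Pfkp, the platelet-type form, had 0 counts in both shControl libraries and 2 and 3 in shLmna.

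The next steps showed smaller differences. Aldoa, the main aldolase, stood at 2458 and 1731 CPM in shControl and at 2121 and 2468 CPM in shLmna. The shControl libraries enclosed shLmna 1, and the log2 fold change of 0.13 was -0.10 without shControl 2 and 0.41 without shControl 1, where Aldoa passed the test (edgeR adjusted p = 0.0184, within 0.0184 to 0.952 over all alternatives). Tpi1, which interconverts the products of aldolase, stood at 1708 and 1879 CPM in shControl and at 1480 and 1472 CPM in shLmna. Its groups did not overlap, and its log2 fold change of -0.28 (SE 0.11) missed the limit at an edgeR adjusted p of 0.106. With the GC trend taken out, Tpi1 was lower at -0.39 (edgeR adjusted p = 0.0348), and its adjusted p ran from 0.0131 to 0.396 over all alternatives.

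Gapdh, which makes the first NADH of the pathway, depended on a single library. The shControl libraries held 2257 and 2015 counts (699.1 and 539.5 CPM), and the shLmna libraries 86 and 2452 (34.01 and 668.1 CPM). shLmna 2 lay within the shControl range and shLmna 1 far under it. The log2 fold change of -0.80 had an SE of 0.81 (edgeR adjusted p = 0.551), and it was 0.11 without shLmna 1 and -4.17 without shLmna 2. Without the filter on low counts the same fold change had an edgeR adjusted p of 1.56e-07, within 1.84e-08 to 0.895 over all alternatives, so its call depended on the fit. Of the stretches of 31 bases in the counted 3′ end of Gapdh, 97.5% also occur in other annotated genes, 319 in number, so its count depends on how reads with several matches were treated, and the part of this in the low count was not tested.

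Pgk1, which makes the first ATP of the pathway, stood at 21.4 and 28.1 CPM in shControl and at 29.7 and 28.9 CPM in shLmna, a log2 fold change of 0.24 (95% interval -0.25 to 0.72). Pgam1, the mutase after it, stood at 24.5 and 19.0 CPM in shControl and at 14.6 and 15.0 CPM in shLmna. The groups did not overlap, and the log2 fold change was -0.55 (SE 0.24, edgeR adjusted p = 0.158). Of the enolases, Eno2 is the form known from neurons and from many tumours. It stood at 39.0 and 49.3 CPM in shControl and at 23.3 and 21.3 CPM in shLmna, without overlap and with a difference of -0.99 on the log2 scale (SE 0.20, edgeR adjusted p = 0.0101). The call was lost when either shLmna library was left out (edgeR adjusted p = 0.0564 without shLmna 1 and 0.115 without shLmna 2), with values of -1.05 and -0.91. Eno1, the ubiquitous form, had 0 counts in every library, and 82.8% of the stretches of its counted end also occur in other genes, so its count is no measure of its expression here.

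The last steps turned most on lactate dehydrogenase. Pkm, the pyruvate kinase, stood at 3125 and 2754 CPM in shControl and at 2841 and 2358 CPM in shLmna. The groups overlapped, with a log2 fold change of -0.18 (95% interval -0.44 to 0.09). Ldha, the subunit that favours the making of lactate, stood at 2293 and 2425 CPM in shControl and at 1781 and 1667 CPM in shLmna. It was lower without overlap, by a log2 fold change of -0.45 (SE 0.10, with an adjusted p of 0.0155 in edgeR), or 26.9%. Ldhb, the subunit that favours the return of lactate to pyruvate, stood at 131.0 and 132.3 CPM in shControl and at 192.6 and 173.0 CPM in shLmna. It was higher without overlap, by a log2 fold change of 0.47 (SE 0.12, with an adjusted p of 0.0286 in edgeR), or 1.39-fold. The call of Ldhb was lost with the GC trend taken out (0.38, edgeR adjusted p = 0.0562), in DESeq2 (adjusted p = 0.0658) and without either shLmna library, and its adjusted p ran from 0.0049 to 0.231 over all alternatives. The call of Ldha was lost without shLmna 1 (-0.50, edgeR adjusted p = 0.11) and without shLmna 2 (-0.39, edgeR adjusted p = 0.178). Stretches shared with other genes made up 29.0% of the counted end of Ldha and 48.4% of that of Ldhb, as they did 19.3% to 56.9% of the ends of Tpi1, Pkm, Aldoa and Pgk1, so the counts of these genes may hold reads that fit elsewhere.

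**Figure D3:**
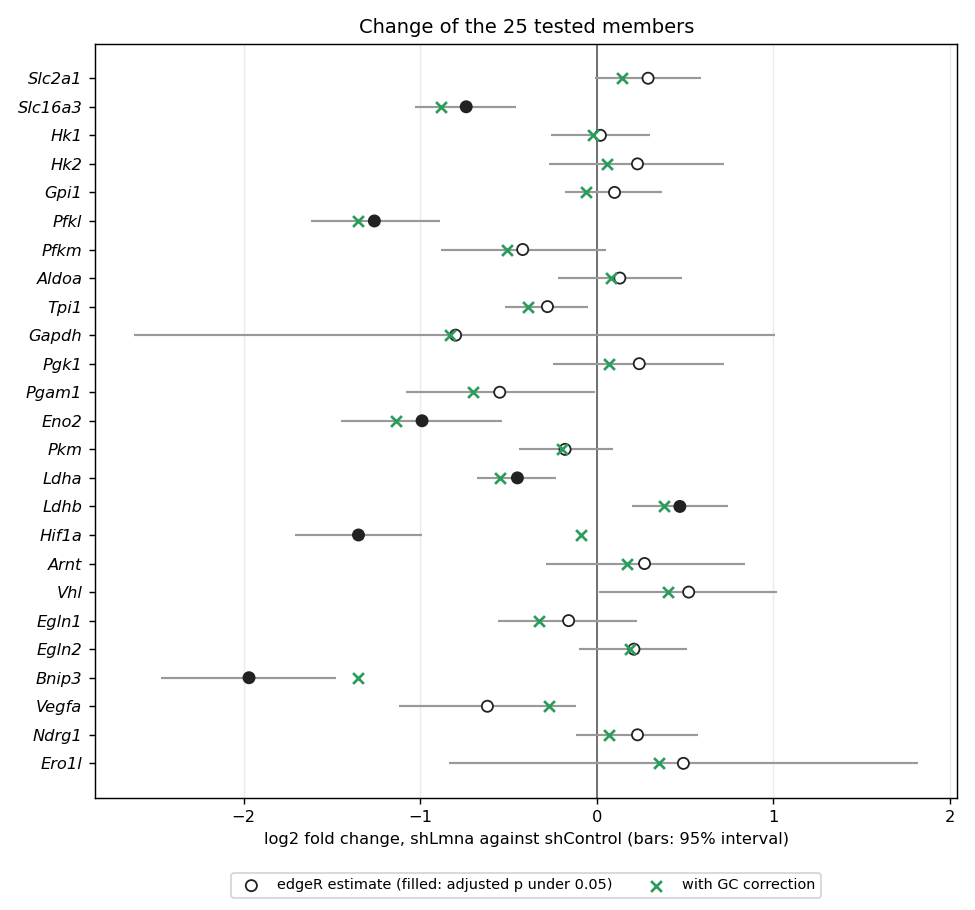
Log2 fold change of shLmna against shControl for the 25 tested genes, ordered by role with the transporters first. Circles are edgeR estimates, filled where the adjusted p was under 0.05, bars are 95% intervals, and crosses are estimates with the GC trend taken out. Hif1a is where circle (-1.35) and cross (-0.09) lie farthest apart, while for Pfkl, Slc16a3, Eno2 and Ldha the cross lies slightly farther below 0 than the circle.

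Where isozymes share a step, the share of each in the counts of its family was followed from library to library. Counted ends differ between isozymes, so a share is read across libraries and not as a ratio of molecules, and the exact binomial 95% intervals cover counting error only. Ldhb held 5.41% (4.91 to 5.93) and 5.17% (4.74 to 5.63) of lactate dehydrogenase counts in shControl. In shLmna it held 9.76% (8.95 to 10.6) and 9.40% (8.72 to 10.1). The share was thus higher in both shLmna libraries, with no overlap of their intervals and those of shControl.

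In the phosphofructokinase family, Pfkl held 83.5% (80.2 to 86.5) and 86.9% (84.4 to 89.1) of counts in shControl. It held 76.0% (69.8 to 81.6) and 75.9% (71.1 to 80.3) in shLmna, and the intervals of shControl 1 and the shLmna libraries overlap slightly. Pfkm held 16.5% and 13.1% in shControl and 23.0% and 23.2% in shLmna, where the 2 and 3 counts of Pfkp made up the remainder. The hexokinase and prolyl hydroxylase families differed less between the groups. Hk2 held 12.5% and 15.3% of hexokinase counts in shControl and 15.6% and 15.9% in shLmna. Egln2 held 70.0% and 67.1% of prolyl hydroxylase counts in shControl and 74.8% and 72.7% in shLmna. Aldoa held 99.9% of aldolase counts in each library. With 2 libraries a group the smallest two-sided p of an exact permutation test is 0.333, so no share was tested.

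**Figure D4:**
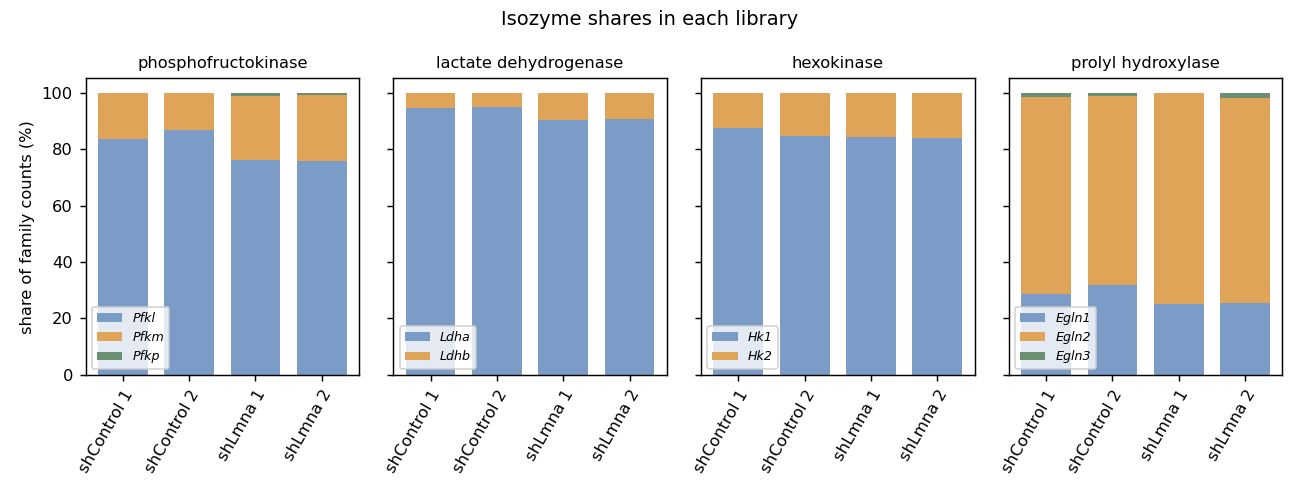
Share of each isozyme in the counts of its family, in percent, drawn as stacked columns for each library. The families are phosphofructokinase, lactate dehydrogenase, hexokinase and prolyl hydroxylase, and intervals are not drawn. Ldhb lies at 5.17% to 5.41% in shControl and at 9.40% to 9.76% in shLmna. The Pfkl share is lower in both shLmna libraries, and the Hk2 and Egln2 shares differ less between the groups.

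Summed over the 17 glycolytic enzyme genes, the level was 11453 and 10664 CPM in shControl and 9510 and 9839 CPM in shLmna. Over the 2 libraries of each group this gave 11058 ± 559 CPM (mean ± SD) for shControl and 9674 ± 233 CPM for shLmna, a ratio of 0.875. Without Gapdh, a choice made after its low count was seen, the sums were 10754 and 10124 CPM against 9476 and 9171 CPM, a ratio of 0.893. These genes took between 0.964% and 1.13% of all counts of a library. Most of the sum came from Pkm, Ldha, Aldoa and Tpi1, with shControl means of 2939, 2359, 2094 and 1793 CPM, so it says little about the other enzyme genes. The groups did not overlap by either sum, which was also so for 60.1% of all tested genes taken singly. No test was made over the sums.

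The targets were then set beside Hif1a. Of 20 genes in the group that are textbook HIF1 targets, 15 were tested. By edgeR 4 were lower (Bnip3, Pfkl, Slc16a3 and Ldha), 0 higher and 11 neither. These shares were 26.7% lower and 0% higher, against 9.74% and 5.48% of all tested genes. The targets were assigned with earlier results of these data known, so the shares are a description and no test. Ldhb and Vhl, the 2 genes of the group higher at an unadjusted edgeR p under 0.05, were not counted as targets. DESeq2 also found none higher among the 25 genes, against 2.58% of all tested genes. No target was higher at an unadjusted edgeR p under 0.05 in the main fit, against 13.6% of all tested genes. Other fits differed. Limma on the ComBat values took Slc2a1 (0.13, limma adjusted p = 0.014) and Ndrg1 (0.10, limma adjusted p = 0.0316) as higher. It also took further targets as lower, among them Tpi1 and Vegfa, and no share of all tested genes was taken for it. Aldoa was at 0.41 without shControl 1, and Ero1l at 2.28 without shControl 2. The log2 fold changes of the 15 had a median of -0.28, with 9 below 0 and 6 above 0, against -1.35 for Hif1a. In percent of the shControl mean, Hif1a stood at 37.0% and 41.0% in the shLmna libraries. Pfkl stood at 39.2% and 44.4%, and Bnip3 at 23.3% and 27.2%. Slc16a3 stood at 63.8% and 55.9%, Vegfa at 58.6% and 70.1%, and Ldha at 75.5% and 70.7%. Slc2a1, Hk2, Pgk1, Aldoa, Ndrg1 and Ero1l stood at 101% to 171%, so they did not share the lower level of Hif1a.

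Divided by Hif1a in the same library, the level of 12 of the 15 targets was higher in both shLmna libraries than in both shControl libraries. That was the usual pattern, since the same ratio was higher without overlap for 91.4% of all tested genes. The ratio of Pfkl to Hif1a was 2.11 and 2.60 in shControl and 2.50 and 2.56 in shLmna, which overlap. The ratio of Gapdh overlapped too, from 7.38 to 10.3 in shControl and at 1.30 and 23.1 in shLmna. The ratio of Bnip3 to Hif1a was 0.598 and 0.652 in shControl and 0.394 and 0.415 in shLmna, so Bnip3 was lower even against Hif1a. Bnip3 and Pfkl were thus the targets whose fold change lay near or below that of Hif1a over both shLmna libraries, while Gapdh reached a lower level in shLmna 1 alone (5.49%). With the GC trend taken out, Hif1a was at -0.09 while Bnip3 and Pfkl were both at -1.35, so in that fit the lower targets had no lower Hif1a beside them. Protein levels of HIF1A were not analysed here, and 4 libraries are too few for a correlation.

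**Figure D5:**
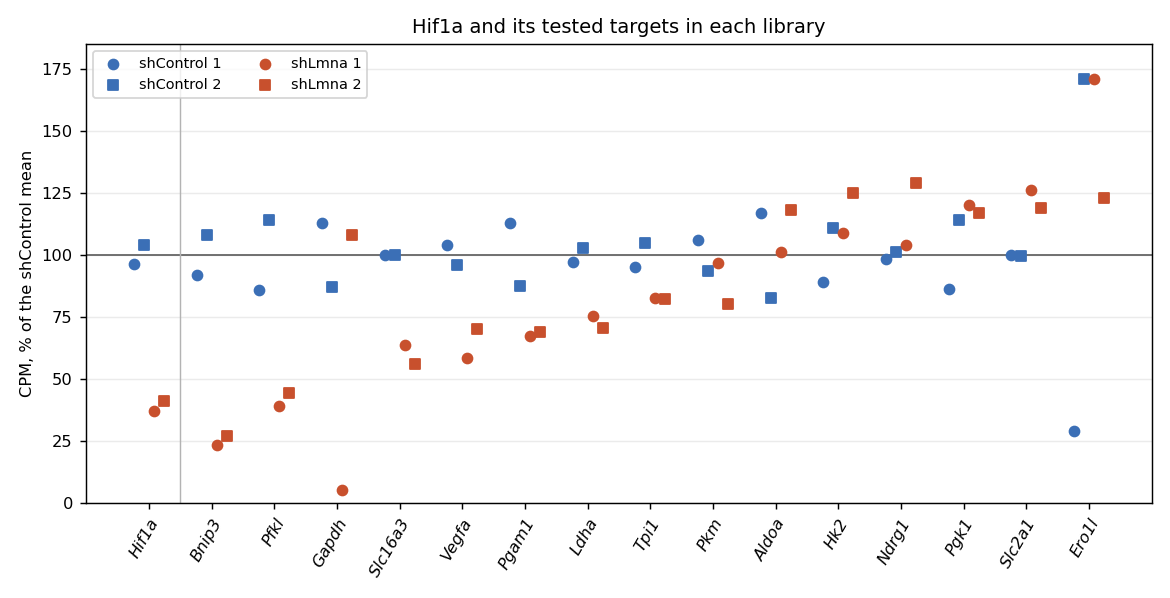
Level of Hif1a and of the 15 tested HIF1 targets in each library, in percent of the mean of the 2 shControl libraries. Points are libraries, and a target that matched Hif1a would have its shLmna points between 37.0% and 41.0%. Pfkl comes close to that range, Bnip3 lies under it, and Slc2a1, Hk2, Pgk1, Aldoa, Ndrg1 and Ero1l lie above 100%.

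Further genes of these pathways, from lists drawn up by function with earlier results of these data known, were counted next. Among all tested genes 9.74% were lower and 5.48% higher by edgeR. Of 33 other glucose handling genes, 19 were tested, 1 was lower and 0 were higher, with a median log2 fold change of 0.01. The lower gene was Gpd1l, a glycerol-3-phosphate dehydrogenase, at -0.70 (edgeR adjusted p = 0.0452). Without 1 library its value ran from -0.81 to -0.57, and its call was lost without shControl 2 and without either shLmna library. DESeq2 passed 0 of these genes, and 8 (42.1%) had an unadjusted edgeR p under 0.05, against 30.1% of all tested genes. Of 20 pyruvate dehydrogenase and pentose phosphate genes, 16 were tested, with a median of -0.00. Of these 1 was lower and 1 higher (6.25% each), and 2 (12.5%) had an unadjusted edgeR p under 0.05. Mpc2, a subunit of the carrier that brings pyruvate into mitochondria, was higher, at 0.56 (edgeR adjusted p = 0.0308). Without 1 library its value ran from 0.36 to 0.73. Rpe, the ribulose phosphate epimerase, was lower at -2.20 (edgeR adjusted p = 0.0246), a call lost with the GC trend taken out (-0.81, edgeR adjusted p = 0.315, within 1.25e-11 to 0.395 over all alternatives).

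Of 23 other HIF pathway regulators, 19 were tested, 3 were lower (15.8%) and 0 higher, with a median of -0.11. DESeq2 found 2 lower and 0 higher, and 5 (26.3%) had an unadjusted edgeR p under 0.05, a share below the 30.1% of all tested genes. Values are given for 2 of the 3. Cited2, which competes with HIF1A for its coactivator, was lower at -1.49 (edgeR adjusted p = 0.0406), a call lost with the GC trend taken out (-1.23, edgeR adjusted p = 0.0638, up to 0.418 over all alternatives). Ep300, that coactivator, was lower at -0.97 (edgeR adjusted p = 0.0185), and ran from -1.20 to -0.78 without 1 library. Its call was lost without either shLmna library. Its 3′ end is 30.9% GC, however, and its value was 0.54 with the GC trend taken out.

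Other HIF1 targets moved in both directions. Of 52 listed, 33 were tested, 3 were lower and 5 higher, with a median of 0.03. These shares were 9.09% lower and 15.2% higher, against 9.74% and 5.48% of all tested genes, so the lower share was near that of all genes. An unadjusted edgeR p under 0.05 was found for 12 (36.4%), against 30.1% of all tested genes. DESeq2 passed 1 lower and 2 higher. Bnip3l, the paralogue of Bnip3 with the same role in mitophagy, was higher where Bnip3 was lower. It stood at 2.17 and 5.62 CPM in shControl and at 24.1 and 30.2 CPM in shLmna, a log2 fold change of 2.77 (SE 0.36, with an adjusted p of 0.000835 in edgeR). Tfrc, the transferrin receptor, was higher at 2.81 (edgeR adjusted p = 0.0106), with 3.41 and 47.7 CPM in shControl and 200.5 and 170.6 CPM in shLmna. Its value was 1.96 without shControl 1 and 5.74 without shControl 2, and its call was lost without shLmna 1 (edgeR adjusted p = 0.0596) and without shLmna 2 (0.0885). Plod2, a collagen lysyl hydroxylase, Met, a growth factor receptor, and Insig2, a sterol sensor partner, were higher at 0.83, 0.80 and 0.52. These 3 calls were lost without either shLmna library (edgeR adjusted p from 0.122 to 0.21), and without shControl 1 Plod2 was at 0.55 and Met at 0.50. Wsb1, Tgfb3 and Kdm4b were lower at -1.25, -1.09 and -0.71. Without 1 library they ran from -2.17 to -0.76, from -1.23 to -0.95 and from -0.78 to -0.64, in that order. The call of Kdm4b was lost without shControl 2 and without either shLmna library. Wsb1 lost its call with the GC trend taken out (-0.61, edgeR adjusted p = 0.213). With the GC trend taken out Insig2 was at 0.37 and lost its call too, while Mpc2 was at 0.48, close to its main value, with an edgeR adjusted p of 0.0545. In DESeq2 the calls of Cited2, Ep300, Rpe, Gpd1l, Tfrc, Met, Insig2, Tgfb3 and Kdm4b were lost.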

How the data were processed

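The 4 B16F10 libraries, 2 shControl and 2 shLmna by their titles, were compared. According to the study's methods, the authors trimmed reads with Cutadapt, aligned them to mm10 with STAR (2.4.2a in the submitters' processing notes) and counted them with HTSeq over the final 1000 bases of each RefSeq gene plus 100 bases downstream. The authors deposited raw counts per gene symbol, which enter every main test here, and whether UMI duplicates had been collapsed in them is not stated. A deposited table gave a signal, the count divided by a size factor, beside the authors' p-values, adjusted p-values, a pass flag and a direction, none of which was used. Once multiplied back by that factor, 100% of its values lay within 0.1 of a whole read, and the count matrix was 1.08 to 1.09 times the recovered reads. The authors also deposited log2 values corrected with ComBat for batches that are not named.

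edgeR 4.0.16 (R 4.3.3) was run on the counts in its quasi-likelihood form (TMM, filterByExpr, group as the term, two-sided) and adjusted over 9150 genes by Benjamini-Hochberg. The biological coefficient of variation was 0.126. SEs came from the F statistic. Replicates differed by more than counting noise (chi-square per degree of freedom 6.96 and 3.91) and were kept apart. Alternatives were RLE scaling, library totals alone, no filter, DESeq2 1.42.0, limma 3.58.1 on the ComBat values, recovered reads, the replicate block, a loess correction (span 0.3) for the GC content of the last 1000 transcript bases (GENCODE on GRCm38, known for 99.4% of tested genes), and leaving out each library. The edgeR script was tested on simulated counts. A detection floor of 3 counts equals 0.803 to 1.19 CPM and covers counting error only. Named genes are the 32 members, Lmna and the genes of 4 wider lists with an adjusted p under 0.05, of which 1 is not reported here. The members, lists and target assignments were chosen with earlier results of these data known.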

Additional observations from a re-analysis of the deposited data

How the results depend on the processing

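Over 13 alternatives, 286 of 325 values of the 25 tested genes kept their direction and side of the limit, 18 gained the call, 11 lost it and 10 changed sign. The 10 changes of sign were all of genes without a call. Hk1 (0.02) became -0.02 with the GC correction and -0.03 with the replicate block and GC correction, and ran from -0.06 to 0.10 without 1 library. Gpi1 (0.10) became -0.06 and -0.05 with those corrections and ran from -0.01 to 0.21. Without 1 library, Aldoa ran from -0.10 to 0.41, Gapdh from -4.17 to 0.11, Arnt from -0.12 to 0.64 and Ero1l from -0.24 to 2.28. Ep300 became 0.54 with the GC correction and 0.55 with the replicate block added.

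By limma on the ComBat values Lmna was at -1.54 (main fit -2.61), Bnip3 at -0.49 (-1.97) and Hif1a at -0.44 (-1.35). These were smaller in size than in the main fit, while Gapdh was larger (-0.93 against -0.80). A fold limit of 1 is thus not the same limit in the limma fit, and no share of all tested genes was taken for it. The number of lower genes was 6, and 11 by limma on the ComBat values, where 0 passed the 3 limits. It ran from 4 (without shLmna 1 or shLmna 2) to 7 without 1 library. The number of higher genes was 1, and 0 by DESeq2, 0 with the GC correction, 5 by limma and 0 to 2 without 1 library. By the 3 limits it was 0 to 1 without 1 library. Leaving out a library leaves a group with 1, assumed to vary like the other group. The summed level of glycolytic enzymes was 10439 CPM in shControl and 9323 CPM in shLmna without Gapdh. The causes of these shifts were not tested.

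With the replicate block Gapdh (-1.69, edgeR adjusted p = 1.84e-08, and 0.08 with the GC correction added) and Tpi1 (-0.28, edgeR adjusted p = 0.0453) also passed as lower. No share of all tested genes was taken for that fit. Its p-values were smaller for other genes too, with the edgeR adjusted p of Pfkl going from 0.000796 to 1.98e-13. Replicate numbers did not pair the libraries (the differences of replicate 1 and 2 correlated at 0.013 across genes between the groups), so this is a matter of the fit alone. The design holds 2 libraries a group and a trend with GC content, so small changes and changes of AT-rich genes such as Hif1a are the least firm. Genes at a few counts, such as Pfkp or Pdk1, could not be assessed at this depth.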

Other observations

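Some genes of these lists were split between the libraries of 1 group, and they are given here as values, chosen after they were seen. Like Gapdh, with 86 counts in shLmna 1 and 2452 in shLmna 2, Rpe had 2 and 35, Cited2 had 44 and 284, and Wsb1 had 25 and 97. Among the shControl libraries, Tfrc had 11 counts in shControl 1 and 178 in shControl 2, and Ero1l had 5 and 34. The log2 fold change of Rpe was -1.46 without shLmna 1 and -4.97 without shLmna 2. That of Cited2 was -0.85 and -2.99, and that of Wsb1 -0.76 and -2.17, in the same order.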
